A study of Mus musculus with 21 samples.

Results

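The 10 core circadian clock genes Arntl, Clock, Per1, Per2, Per3, Cry1, Cry2, Nr1d1, Nr1d2 and Dbp were followed in the mouse hippocampus. They were chosen by symbol, as the standard members of the clock loop, and all 10 were found among the 24411 genes of each of 2 deposited tables. All mice were male wild-type animals that were perfused before the hippocampus of 1 hemisphere was taken. In the transfer experiment the recipients were B6.SJL-Ptprca Pepcb/BoyJ mice aged 4 months. Both recipient groups received a CD8a antibody on days -11 and -7, and so carried a depletion of their own CD8+ T cells, before CD8+ T cells from spleen and blood of C57BL/6J donors were given by tail vein. Donors were 22 to 28 months old for the aged T recipients (n = 5). They were 3 to 4 months old for the young T recipients, of which there were 6. The depletion experiment used mice 22 to 24 months old, which were given a CD8a antibody (clone 2.43, n = 5) or a rat IgG2b isotype control (LTF-2, n = 5) every 4 days until sacrifice. The comparisons ask whether CD8+ T cells from aged donors, or the removal of CD8+ T cells from aged mice, go along with a change in hippocampal transcripts. No source used here states the time of day at which tissue was collected, so a difference in collection time and a difference in clock gene level cannot be told apart.

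The molecular clock is a transcriptional feedback loop that runs in nearly every cell, with a period of about a day. ARNTL (also called BMAL1) and CLOCK pair up, bind E-box sequences and switch on the Per, Cry, Nr1d and Dbp genes. PER and CRY proteins then enter the nucleus and block that pair, NR1D1 and NR1D2 (REV-ERB alpha and beta) bind ROR elements and repress Arntl, and DBP drives further output genes through D-box elements. In most mouse tissues Arntl peaks when Dbp is near its trough. In the hippocampus the loop is linked to memory performance, and Per1 is also induced by neuronal activity and glucocorticoids.

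The sequences below show where the loop's own binding motifs lie close to 4 members whose values are followed through the results. RefSeq (GRCm38.p6) windows of 250 bases before an annotated start were found for 9 members, 13 windows in all, and Per2 had no entry in that table. Each window was searched on both strands for the E-box CACGTG, the related CACGTT, the D-box TTATGTAA and the ROR core AGGTCA. They are printed 5′ to 3′ on the gene's strand, with every match in capitals, so that TGACCT is the ROR core and AACGTG is CACGTT on the other strand.
Per3, chr4:151044666-151044915, minus strand: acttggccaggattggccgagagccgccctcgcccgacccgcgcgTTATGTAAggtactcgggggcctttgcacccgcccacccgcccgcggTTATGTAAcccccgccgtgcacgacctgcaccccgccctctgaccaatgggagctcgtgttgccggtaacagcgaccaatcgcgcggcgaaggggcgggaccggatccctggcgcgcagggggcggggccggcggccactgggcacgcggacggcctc
Per1, chr11:69098699-69098948, plus strand: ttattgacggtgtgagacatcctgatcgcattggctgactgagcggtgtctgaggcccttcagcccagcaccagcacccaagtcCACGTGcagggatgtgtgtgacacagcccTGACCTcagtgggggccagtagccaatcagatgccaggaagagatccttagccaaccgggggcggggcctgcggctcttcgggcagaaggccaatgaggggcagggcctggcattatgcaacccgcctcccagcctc
Cry1, chr10:85185055-85185304, minus strand: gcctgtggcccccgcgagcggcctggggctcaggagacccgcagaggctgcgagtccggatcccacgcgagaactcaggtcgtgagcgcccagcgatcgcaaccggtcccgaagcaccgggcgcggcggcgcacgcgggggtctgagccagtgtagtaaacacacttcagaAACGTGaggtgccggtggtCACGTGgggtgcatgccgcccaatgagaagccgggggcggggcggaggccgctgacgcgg
Nr1d1, chr11:98775378-98775627, minus strand: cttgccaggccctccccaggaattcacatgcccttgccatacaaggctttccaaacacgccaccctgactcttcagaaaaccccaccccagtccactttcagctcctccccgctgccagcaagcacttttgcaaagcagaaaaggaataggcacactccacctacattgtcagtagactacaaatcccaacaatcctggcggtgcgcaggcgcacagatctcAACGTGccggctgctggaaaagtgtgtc
The Per3 window held 2 D-boxes, 205 and 158 bases before the start, and it was the only member window with one. The D-box is the sequence that DBP and its relatives bind, and 0.819% of the 32851 windows of this length held a match. E-boxes lay 166 bases before the Per1 start and 60 bases before the Cry1 start, against matches in 6.02% of all windows. CACGTT lay 79 bases before the Cry1 start, 28 bases before the Nr1d1 start and 166 bases before a Cry2 start, against 3.85% of windows. The ROR core, to which NR1D proteins bind, lay 137 bases before the Per1 start, and windows of Clock and Nr1d2 also held it, against 14.0% of windows. No 2 matches overlapped. The windows of Arntl and Dbp, the other Per1 window and the other Clock windows held no match to any of these motifs. In GENCODE M21, 10 bases of the Cry1 window and 1 base of the printed Per1 window are exonic, and the Per3 and Nr1d1 windows hold no exonic base. The printed Per1 window lies within the gene's span, before an internal annotated start. A match is a description of these letters only. Other forms of a motif and sites outside these windows were not searched, so a window without a match may still hold or adjoin a binding site.

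RNA was measured by polyA-enriched, strand-specific, paired-end sequencing of bulk tissue, so fewer cells of a type and less RNA per cell cannot be told apart. Reads per library numbered 12361933 to 15055422 for aged T, 11232442 to 14911138 for young T, 9957822 to 12136146 for the CD8a antibody and 11103024 to 14375029 for IgG2b. The hippocampal markers Prox1, Wfs1, Neurod6, Zbtb20 and Snap25 were read in every library. Of 6 markers of the suprachiasmatic nucleus and neighbouring hypothalamus, summing to 240 to 517 normalized counts per library, Avp, Lhx1 and Six6 had group means of at most 8.23. Vip, Rgs16 and Six3 passed the filter on low values and were split in direction. Vip, also made by hippocampal interneurons, lay lower with the antibody (log2 difference -0.59, limma adjusted p = 0.427). Rgs16 lay lower there too (-0.31, limma adjusted p = 0.711), and Six3 lay higher (1.58, limma adjusted p = 0.603). In aged T recipients the log2 differences were -0.14 for Vip, -0.07 for Rgs16 and 1.33 for Six3, and limma called none of them. The part of these markers in the clock gene values was not tested. The summed level of 6 CD8 T cell markers was low in all groups. It was 1.03 to 14.5 normalized counts with the CD8a antibody (median 5.57) and 0 to 10.2 with IgG2b (median 3.45). In the transfer it was 0 to 4.50 with aged T cells (median 0) and 0.912 to 7.77 with young T cells (median 1.58). These libraries thus show no lower level of the markers with the antibody, and values this low cannot measure a depletion. Library 5 of the CD8a antibody group stood apart on the first principal component of the depletion experiment (58.8, other libraries -26.2 to 6.15, group means subtracted, 28.7% of variance), and the main results that it moves are given with and without it.

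Levels are given as normalized counts, the read count of a gene divided by 1 size factor per library. Each table was scaled alone, so levels are not compared across the experiments. Per kilobase of exon, Nr1d1 and Cry2 were the most abundant clock transcripts in all 4 groups and Per3 the least. In young T recipients Nr1d1 stood at 399.6 ± 51.3 normalized counts per kilobase (SD, n = 6), Cry2 at 343 ± 18.1, Nr1d2 at 303 ± 36.3 and Dbp at 301 ± 72.2. Per1 followed at 153 ± 24.6, Clock at 102 ± 12, Per2 at 88.3 ± 25.5, Cry1 at 81.2 ± 13.8, Arntl at 53.4 ± 10.4 and Per3 at 46.0 ± 16.4. Per1 came next after these 4 in every group, and its range overlapped neither that of the gene above nor that of the gene below it in any group. Among young T recipients and among aged T recipients, all other neighbours in this order overlapped in range. With the CD8a antibody the order was Nr1d1, Cry2, Dbp, Nr1d2, Per1, Cry1, Clock, Arntl, Per2 and Per3, from 349.6 ± 44.3 to 26.6 ± 6.01 per kilobase (SD, n = 5). With IgG2b it was Nr1d1, Cry2, Nr1d2, Dbp, Per1, Clock, Cry1, Per2, Arntl and Per3, from 329 ± 40.6 to 24.1 ± 5.41 (SD, n = 5).

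**Figure D1:**
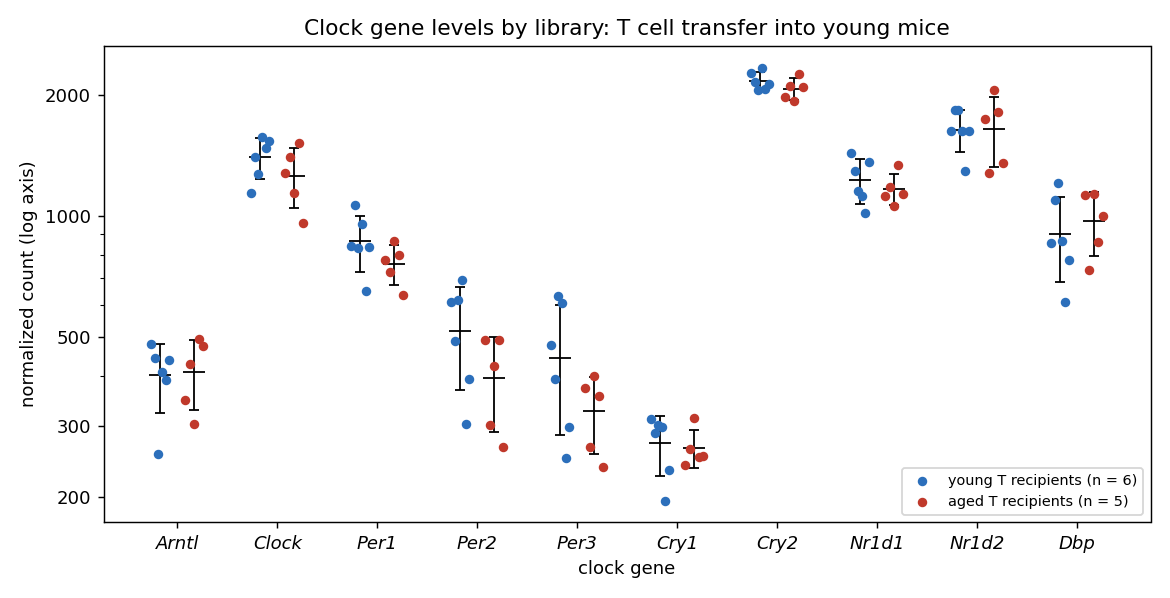
Normalized count (log axis) of each clock gene in every library of the transfer experiment, 1 point per library, with the mean and SD of each group (aged T n = 5, young T n = 6). The groups overlap for all 10 genes, and Per2 and Per3 spread most, from 266 to 694 and from 236 to 630.3.

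In the transfer experiment the Period genes lay lower in aged T recipients than in young T recipients, by most for Per2 and Per3, while Arntl, Cry1 and Nr1d2 were nearly level. None of the 10 genes passed the test. limma called 0 of 10 members at an adjusted p under 0.05, against 0% of the 14162 genes tested, and 0 of 10 had an unadjusted p under 0.05, against 8.25% of all genes (4.29% higher and 3.96% lower). Likewise limma-voom, edgeR and DESeq2 called 0 of 10, each with 0 at an unadjusted p under 0.05. A total of 8 members lay lower and 2 higher, against 51% and 49% of all genes, with a median log2 difference of -0.07 against 0.00 over all genes. No member's groups were free of overlap, against 0.459% of genes higher and 0.24% lower without overlap.

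Per2 and Per3 encode the repressors of the loop that cycle most strongly in many tissues. Per2 stood at 491, 302, 423, 489.8 and 266 normalized counts in aged T recipients 1 to 5, and at a lowest 304, a median 548 and a highest 694 in young T recipients. The 2 lowest aged T libraries lay under every young T library and the 3 highest young T libraries lay above every aged T library, but the rest overlapped. The Per2 log2 difference was -0.38 (SE 0.21, 95% interval -0.83 to 0.08, limma adjusted p = 0.624).

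Per3 stood at 373, 265, 398, 356 and 236 normalized counts in aged T recipients 1 to 5, against a lowest 250.03, a median 434 and a highest 630.3 in young T recipients. The groups overlapped here too, and young T recipient 5 was lowest of its group for Per1, Per2 and Per3 alike. The Per3 log2 difference was -0.39 (SE 0.23, 95% interval -0.87 to 0.09, limma adjusted p = 0.635).

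Per1, the Period gene that also answers to neuronal activity, stood at 776, 724, 864, 800.1 and 634 in aged T recipients 1 to 5. In young T recipients it had a lowest value of 651, a median of 839.6 and a highest value of 1065. Only 1 aged T library, the lowest, lay outside the young T range. Per1 had a log2 difference of -0.18 (SE 0.12, 95% interval -0.42 to 0.07, limma adjusted p = 0.667). With single libraries left out, the Per1 log2 difference ranged from -0.25 to -0.11, that of Per2 from -0.52 to -0.25 and that of Per3 from -0.54 to -0.27. The lowest values came without young T recipient 5, where all 3 had an unadjusted limma p under 0.05 and an adjusted p from 0.577 to 0.578. The highest came without young T recipient 2 for Per1, aged T recipient 5 for Per2 and young T recipient 3 for Per3.

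Cry1 and Cry2, which with the PER proteins form the repressing complex, differed little. Cry1 stood at 264 ± 28.6 normalized counts with aged T cells (SD, n = 5, range 240.2 to 313) and 271 ± 46.2 with young T cells (SD, n = 6, range 195.5 to 312). Its log2 difference was -0.03 (SE 0.13, limma adjusted p = 0.966). Cry2 had the tightest values of all members, 1928 to 2256 with aged T cells and 2052 to 2339 with young T cells. Its log2 difference of -0.06 had a 95% interval of -0.21 to 0.08 (SE 0.07, limma adjusted p = 0.799), the narrowest interval of the 10.

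The activator pair did not differ beyond the spread between libraries. Arntl stood at 349, 428, 303, 495 and 473 normalized counts in aged T recipients 1 to 5, and at a lowest 255, a median 423 and a highest 479 in young T recipients. Both groups thus held libraries with low and libraries with high Arntl. Arntl had a log2 difference of 0.03 (SE 0.16, 95% interval -0.32 to 0.37, limma adjusted p = 0.970). Clock ranged from 962 to 1514 with aged T cells (median 1281) and from 1140.2 to 1570.3 with young T cells (median 1435). Its log2 difference was -0.16 (SE 0.12, limma adjusted p = 0.698), from -0.23 without aged T recipient 4 to -0.07 without aged T recipient 5. Across all genes the log2 difference ran with the merged exon length of the gene (Spearman rho -0.45), and with that trend subtracted the Clock difference was -0.03. On the same footing 7 members lay lower and 3 higher (median -0.05).

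Nr1d1 and Nr1d2, the nuclear receptors that repress Arntl, had log2 differences of -0.07 (SE 0.10, limma adjusted p = 0.837) and -0.01 (SE 0.12, limma adjusted p = 0.992). Nr1d1 ranged from 1060.4 to 1334 with aged T cells and 1019 to 1434 with young T cells, and Nr1d2 from 1277 to 2054 and 1296 to 1832. In both genes the aged T range lay largely within or around that of the controls.

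Dbp, the output activator with the widest daily swing in many tissues, stood at 1126, 732, 1132, 859 and 998 normalized counts in aged T recipients 1 to 5. In young T recipients its lowest value was 610.2, its median 860.5 and its highest 1204, so all 5 aged T libraries lay inside the young T range. Dbp had a log2 difference of 0.12 (SE 0.16, 95% interval -0.22 to 0.46, limma adjusted p = 0.834), from 0.02 without young T recipient 5 to 0.22 without aged T recipient 2.

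Vascular, fibroblast and choroid plexus markers leaned in the same comparison, but limma called none of them at an adjusted p under 0.05. All 8 vascular and fibroblast markers lay lower in aged T recipients (median log2 difference -0.84, 4 of 8 at an unadjusted limma p under 0.05, summed level 1424 to 3013 against 1698 to 6974 normalized counts), and their part in the clock gene values was not tested. All 6 choroid plexus markers lay higher (median 0.34, 0 of 6 at an unadjusted limma p under 0.05, summed level 2208 to 53369 against 2813 to 33956). With the choroid plexus level as a covariate in limma, the log2 differences were -0.34 for Per2 and -0.36 for Per3.

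**Figure D2:**
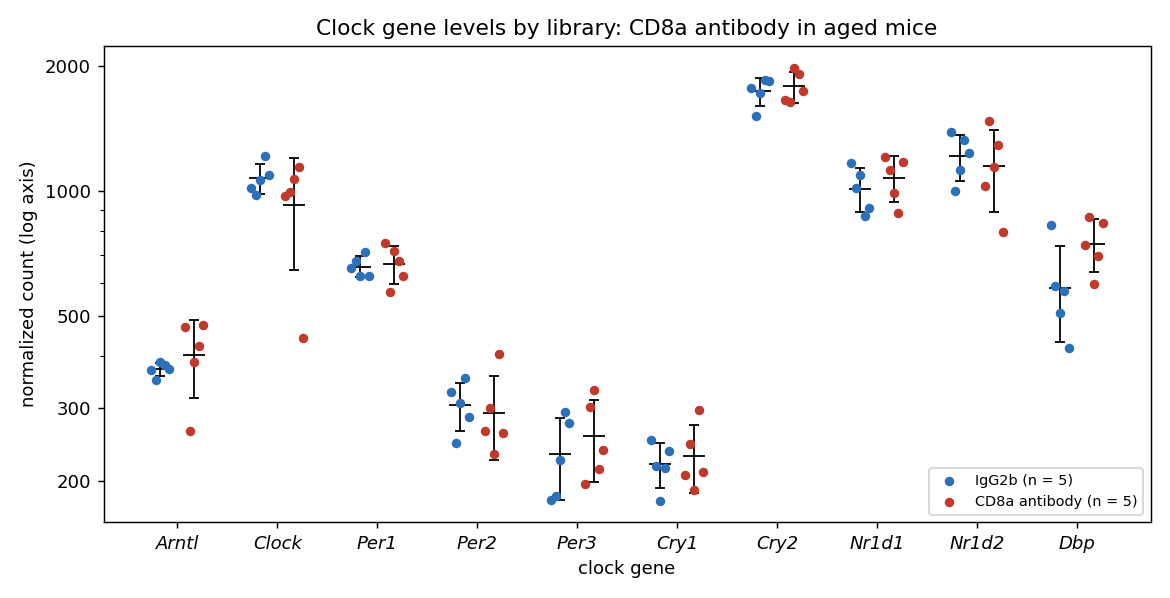
Normalized count (log axis) of each clock gene in every library of the depletion experiment, 1 point per library, with the mean and SD of each group (n = 5 each). The groups overlap for all 10 genes, Dbp sits higher with the CD8a antibody (746 ± 109 against 584 ± 152), and 1 antibody library sits far below the rest for Clock (441).

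In the depletion experiment Dbp lay higher with the CD8a antibody and the other members differed by less than the spread between libraries. limma called 0 of 10 members at an adjusted p under 0.05, against 0.00717% of the 13939 genes tested (1 gene), and 1 of 10, Dbp, had an unadjusted p under 0.05, against 8.47% of all genes (4.31% higher and 4.15% lower). Likewise limma-voom, edgeR and DESeq2 called 0 of 10, each with 1 at an unadjusted p under 0.05, against 0.506% of genes called by DESeq2. A total of 7 members lay higher, against 49.6% of all genes, and 3 lower, against 50.4%, with a median log2 difference of 0.05 against 0.00 over all genes. Across all genes the log2 difference ran with exon length here too (Spearman rho -0.26). With that trend subtracted, 7 members lay higher and 3 lower (median 0.04). The groups of every member overlapped, against 0.782% of genes higher and 1.27% lower without overlap.

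Dbp stood at 740.2, 864, 595, 695 and 836 normalized counts in CD8a antibody libraries 1 to 5 and at 827, 591, 507, 574 and 419 in IgG2b libraries 1 to 5. All 5 antibody libraries lay above 4 of the 5 controls, and IgG2b library 1 lay among the higher antibody values. The Dbp log2 difference was 0.38 (SE 0.16, 95% interval 0.03 to 0.73, limma adjusted p = 0.542), a mean of 746 ± 109 against 584 ± 152 (SD, n = 5 each). The authors' deposited table gives Dbp a log2 difference of 0.35 (SE 0.18), with an adjusted p of 0.491. Leaving out single libraries moved the limma value from 0.27 (without IgG2b library 5) to 0.51 (without IgG2b library 1), with adjusted p from 0.330 to 0.862. Without antibody library 1 or 5, or IgG2b library 3, 4 or 5, no member had an unadjusted limma p under 0.05. Without antibody library 2 the only such member was Arntl. Reads from Dbp exons cannot be fully told apart from those of Sphk2, a sphingosine kinase gene on the opposite strand that shares 539 bases, 18% of Dbp's exon length, because no source used here states the strand setting of the counting.

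The activators went in different directions and neither passed. Clock stood at 973, 993, 1068, 1145 and 441 normalized counts with the CD8a antibody and at 1017, 977, 1062, 1213 and 1095 with IgG2b. Library 5 of the antibody group lay far below the other 9 libraries. Antibody library 1 lay just under the lowest control, and antibody libraries 2, 3 and 4 lay within the control range. For Clock the log2 difference was -0.29 (SE 0.21, limma adjusted p = 0.738), and -0.04 without that library (limma adjusted p = 0.888).

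Arntl stood at 468, 264, 385, 422 and 474 with the CD8a antibody and at 369, 349, 386, 379.7 and 372 with IgG2b. The IgG2b libraries lay close together (371 ± 13.8, SD, n = 5) and the antibody libraries reached beyond them on both sides (403 ± 85.6, SD, n = 5). For Arntl the log2 difference was 0.09 (SE 0.15, 95% interval -0.23 to 0.40, limma adjusted p = 0.904). It ranged from 0.02 without antibody library 5 to 0.23 without antibody library 2, the lowest Arntl value of the group (limma adjusted p = 0.507, unadjusted p under 0.05).

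The repressors were near level. Per1 ranged from 569 to 747 normalized counts with the antibody and 622 to 711 with IgG2b (log2 difference 0.02, SE 0.10, limma adjusted p = 0.977). Per2 ranged from 231 to 403 against 246 to 353 (log2 difference -0.08, SE 0.15, limma adjusted p = 0.923), and Per3 from 196 to 331 against 179.6 to 293 (log2 difference 0.14, SE 0.18, limma adjusted p = 0.861). Per2 and Per3, both lower with aged T cells in the transfer, thus lay on opposite sides of their controls here, with 95% intervals of -0.40 to 0.25 and -0.24 to 0.53. Cry1 (log2 difference 0.06, SE 0.14, limma adjusted p = 0.941) and Cry2 (log2 difference 0.04, SE 0.10, limma adjusted p = 0.943) differed by less than their errors.

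Nr1d1 ranged from 883 to 1209.7 with the antibody and 870.1 to 1171 with IgG2b (log2 difference 0.09, SE 0.12, limma adjusted p = 0.872). Nr1d2 ranged from 798 to 1479.7 against 999 to 1385 (log2 difference -0.10, SE 0.15, limma adjusted p = 0.888). Its lowest value came from antibody library 5, and without that library the Nr1d2 difference was 0.02. Nr1d1 shares 263 exonic bases (8.55% of its exon length) with the thyroid hormone receptor gene Thra on the opposite strand, and Cry2 shares 295 bases (4.67%) with D930015M05Rik, so the same limit on strand holds for them.

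In this comparison 7 of 8 vascular and fibroblast markers lay higher with the antibody (median log2 difference 0.54, 3 higher and 1 lower at an unadjusted limma p under 0.05, summed level 1303 to 2551 against 1599 to 2099). The 1 lower marker was Dcn (log2 difference -1.30, limma adjusted p = 0.175), and the 3 higher were Acta2 (1.07), Tagln (0.96) and Myh11 (0.69). At an adjusted p under 0.05, limma called 0 of the 8 markers and DESeq2 called 2. All 6 choroid plexus markers lay higher (median 0.56, 0 of 6 at an unadjusted limma p under 0.05, summed level 803 to 31576 against 1978 to 26882). With the choroid plexus level as a covariate the Dbp log2 difference was 0.34 (limma adjusted p = 0.473), with an unadjusted p above 0.05. The part of the vascular markers in the clock gene values was not tested.

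**Figure D3:**
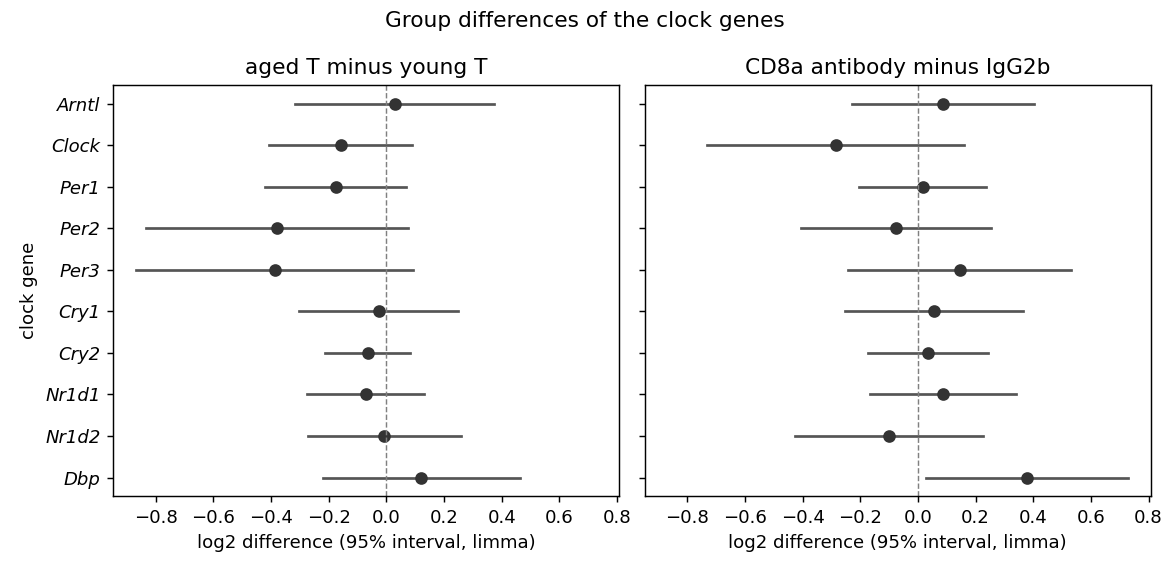
The log2 difference of each clock gene with its 95% interval from limma, aged T minus young T and CD8a antibody minus IgG2b. Only the interval of Dbp in the depletion experiment, 0.03 to 0.73, lies clear of 0, and its adjusted p was 0.542.

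The members differed widely in how much they varied between mice of 1 group. In the transfer experiment the SD of log2 values within groups was 0.46 for Per3 and 0.43 for Per2, at the 85.8th and 84.1st percentile of the 14162 genes, against a median of 0.22 over all genes. Dbp (0.32) and Arntl (0.31) followed, and Cry2 varied least (0.08, percentile 1.98). In the depletion experiment Clock varied most (0.41, percentile 79.98), with library 5 of the antibody group at the low end, then Per3 (0.32) and Dbp (0.30). Cry2 (0.12, percentile 6.47) and Per1 (0.13, percentile 7.64) varied least there, against a median of 0.26 over all genes. Without library 5 of the antibody group, an alternative added after seeing the data, the SD of Clock was 0.11 (percentile 12.1), the lowest of the 10, that of Cry2 was 0.13 and Per3 varied most (0.34).

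With group means subtracted, pairs of members were more often positively than negatively related in the transfer libraries. Of 45 pairs of members, 33 had a positive Pearson r, with a median of 0.24, and 12 had an unadjusted p under 0.05 in an exact permutation test within groups. The pairs share the same genes and libraries, and the matching shares among pairs of other genes were not computed. After Benjamini-Hochberg adjustment over the 90 pairs of both experiments, 1 passed, Per2 with Per3. Per2 and Per3 had r = 0.94 over the 11 libraries (exact permutation p = 0.000312, two-sided, adjusted p = 0.0281) and Spearman rho 0.83 (exact permutation p = 0.00417). The pair was looked at closely after its value had been seen. The r was 0.93 within aged T recipients and 0.97 within young T recipients. It was 0.89 without aged T library 5 and young T library 5, the 2 farthest from the Per2 median, and 0.91 to 0.96 when any single library was left out. Libraries with little Per2, namely aged T 2 and 5 and young T 5 and 6, were also those with the least Per3. They had at most 393 normalized counts of Per2 and 298 of Per3, against at least 423 and 356 in all other transfer libraries. In the labels, these libraries carry the lowest sample numbers of the transfer experiment. What the order of sample numbers stands for is not stated, and its part in this relation was not tested.

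In the depletion libraries the same pair had r = -0.09 (exact permutation p = 0.820, two-sided, adjusted p = 0.905) and rho -0.07 (exact permutation p = 0.879). The r was -0.43 within the CD8a antibody group and 0.42 within IgG2b, 0.50 without antibody libraries 3 and 4, and -0.31 to 0.20 when single libraries were left out. Antibody library 4 had the highest Per2 (403) with a low Per3 (213), and antibody library 3 the lowest Per2 (231) with the highest Per3 (331). The difference between the experiments in r was not tested.

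**Figure D4:**
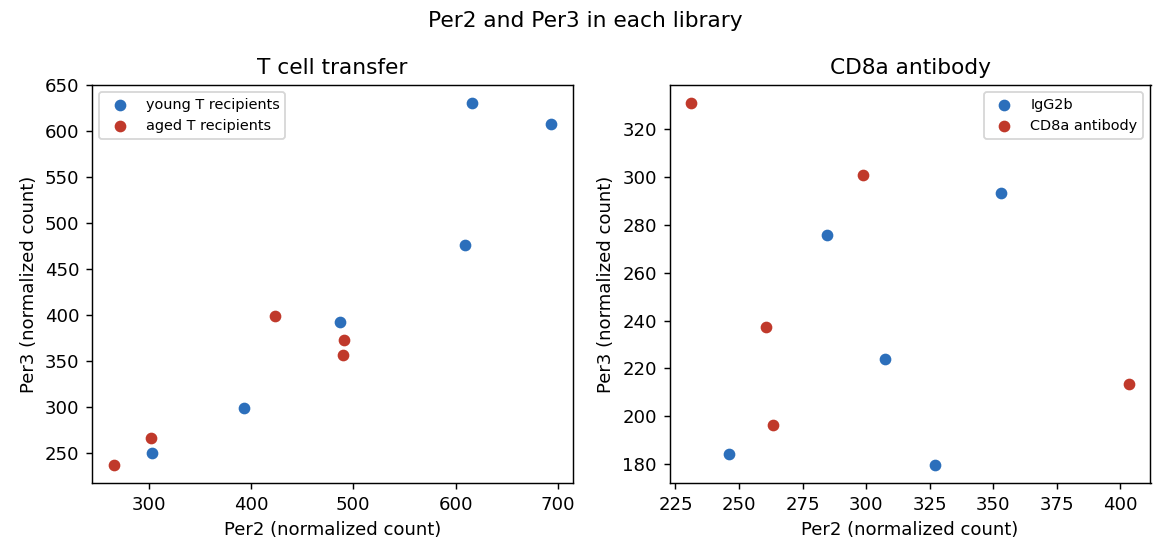
Per2 against Per3 (normalized counts) in each library, with separate axes for the 2 experiments. The 11 transfer libraries of both groups fall along 1 line (r = 0.94 with group means subtracted), and the 10 depletion libraries do not (r = -0.09).

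A wider group of members, Per1, Per2, Per3, Cry1, Nr1d2 and Dbp, ran together in the transfer libraries. All 15 of its pairs had a positive r there, from 0.57 to 0.94, while 7 of 15 were positive in the depletion libraries, from -0.49 to 0.68. Without the 2 libraries farthest from the median of a pair's first gene, r in the transfer ran from -0.10 to 0.89. The lowest was Cry1 with Nr1d2, followed by Per1 with Dbp (0.12) and Cry1 with Dbp (0.20), and the highest was Per2 with Per3. Young T recipient 5 was the lowest young T library for each of these genes. This wider group was put together after the values had been seen and is a description only. Nr1d1, a target of the same activators, was outside it. Its r to the members of the group in the transfer libraries was positive but lower, from 0.01 (Dbp) and 0.04 (Per3) to 0.33 (Per1).

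Arntl, whose daily rhythm runs opposite to that of Dbp in most tissues, was negatively related to 6 of the other 9 members in each experiment. Arntl and Dbp had r = -0.53 in the transfer libraries (exact permutation p = 0.121, two-sided, adjusted p = 0.595 over 18 pairs with Arntl) and rho -0.35 (exact permutation p = 0.3002). That relation rested on aged T library 3 and young T library 3, the libraries farthest from the Arntl median, since r was -0.02 without them. Without the same 2 libraries, r of Arntl with its 6 negatively related members of the transfer ran from -0.02 to 0.41. In the depletion libraries r was -0.17 (exact permutation p = 0.592, two-sided, adjusted p = 0.836) and rho -0.18 (exact permutation p = 0.622), and r was 0.14 without antibody libraries 2 and 5. The smallest adjusted p of the 18 pairs, 0.265, belonged to Arntl with Cry2 in the transfer libraries (r = 0.73, exact permutation p = 0.0147, 0.64 without the 2 farthest libraries). By rank the strongest of the 18 was Arntl with Nr1d1 in the transfer libraries, also positive (rho 0.81, exact permutation p = 0.00405, not adjusted). Its r was 0.58 (exact permutation p = 0.0738), and 0.68 without the 2 farthest libraries.

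In the depletion libraries 22 of 45 pairs were positive, with a median r of -0.02 (23 of 45 and 0.08 without antibody library 5), and 0 passed after adjustment. The 1 pair with an unadjusted p under 0.05 was Clock with Nr1d2 (r = 0.75, exact permutation p = 0.0362), and r was 0.34 without the 2 libraries farthest from the Clock median. Both genes followed the first principal component that set antibody library 5 apart, with r = -0.93 for Clock and -0.85 for Nr1d2 across 10 libraries.

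**Figure D5:**
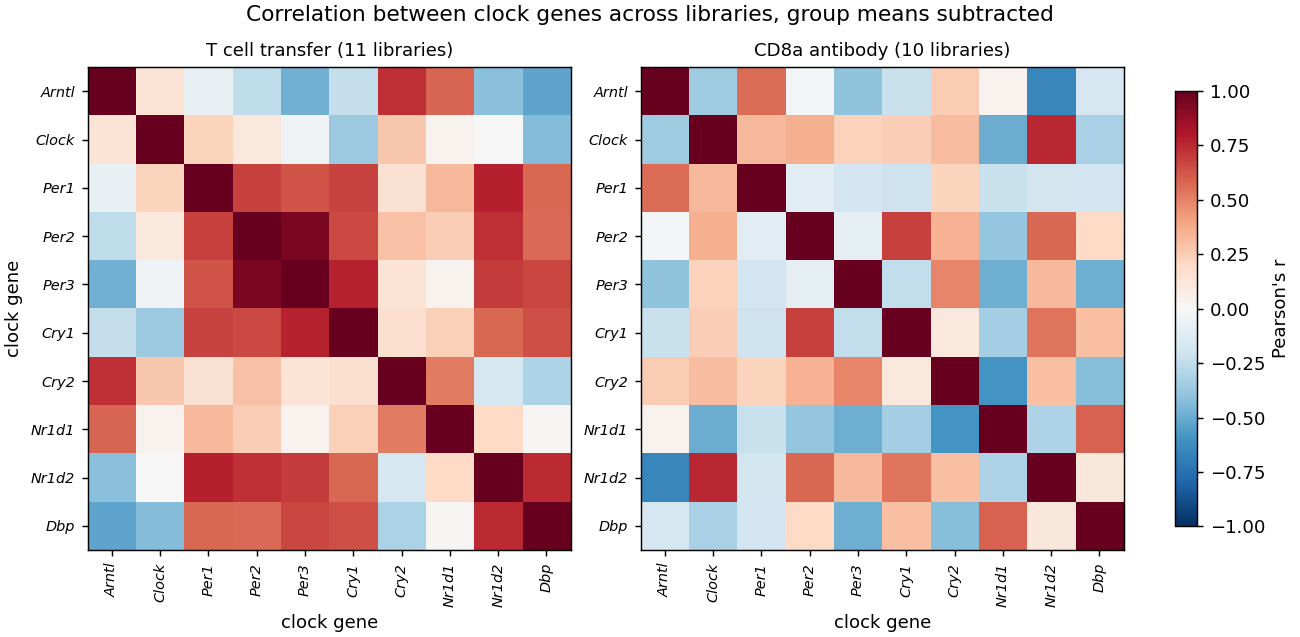
Pearson's r between clock genes over libraries with group means subtracted, red positive and blue negative, for the 11 transfer and 10 depletion libraries. Per1, Per2, Per3, Cry1, Nr1d2 and Dbp form a red block in the transfer panel (0.57 to 0.94) that is mixed in the depletion panel (-0.49 to 0.68).

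Genes outside the list were ranked by how closely they followed Dbp or Arntl within groups, taking the lower of the r values of both experiments over 13854 genes and 21 libraries. Closest to Dbp were Plgrkt, a plasminogen receptor (lower r 0.79), Lxn, a carboxypeptidase inhibitor (0.76), Ptpmt1, a mitochondrial phosphatase (0.76), Cirbp, a cold-inducible RNA-binding protein (0.76), and Vps29, a retromer subunit (0.75). Closest to Arntl were Jakmip1 (0.93), a microtubule-binding protein, the phosphatase gene Ppm1g (0.89), C87436 (0.89), the splicing factor gene Tfip11 (0.88) and Larp6 (0.88), an RNA-binding protein. The number of genes with a lower r of at least 0.7 was 678 for Clock, 353 for Arntl and 88 for Nr1d2, against 2 to 20 for the other members. Without antibody library 5 it was 315 for Clock, 410 for Arntl and 48 for Nr1d2, against 3 to 36 for the others. These correlations share library, depth and tissue composition, and are given without a test.

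The other genes of the pathway were read from a list of 18 partners, all tested in both experiments. limma, edgeR, DESeq2 and limma-voom called 0 of 18 in each. In the transfer experiment 13 lay lower, against 51% of all genes, and 5 higher (median log2 difference -0.06). With the trend with exon length subtracted, 10 lay lower and 8 higher (median -0.003). Both of the 2 partners with an unadjusted limma p under 0.05 lay lower (1 or 2 by the other tools), against 8.25% of all genes in either direction and 3.96% lower. Hlf, a D-box activator related to Dbp, stood at 2250.4, 1680.2, 2315, 2251 and 2000.1 normalized counts in aged T recipients, against a lowest 1794, a median 2686 and a highest 3228 in young T recipients. All 5 aged T values lay below 5 of the 6 young T values, and young T recipient 5, lowest for the Period genes, was again lowest. The Hlf log2 difference was -0.32 (SE 0.13, limma adjusted p = 0.600).

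Timeless, best known for its part at the replication fork, stood at 28.1 to 51.7 against 39.97 to 69.9 (log2 difference -0.46, SE 0.21, limma adjusted p = 0.600). Usp2, a deubiquitinase that is itself a clock output, had a log2 difference of -0.19 (limma adjusted p = 0.613). Npas2, which can take the place of Clock beside Arntl, was level at 283 ± 30.9 against 284 ± 76.7 normalized counts (SD, n = 5 and 6, log2 difference 0.03, limma adjusted p = 0.967).

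In the depletion experiment 11 of 18 partners lay lower, against 50.4% of all genes, and 7 higher (median log2 difference -0.07). This count depended on the tool. With limma-voom 11 lay lower and 7 higher, with edgeR 8 lower and 10 higher (median 0.01), and with DESeq2 9 each way (median 0.00). A single partner had an unadjusted limma p under 0.05 (2 by each other tool), against 8.47% of all genes. This was Npas2, at 177, 363, 179, 203 and 204 normalized counts with the CD8a antibody and 429.9, 289.9, 285, 269.9 and 304 with IgG2b. A total of 4 antibody libraries lay below all 5 controls, and antibody library 2 lay above 4 of them. For Npas2 the log2 difference was -0.52 (SE 0.19, limma adjusted p = 0.457), and -0.71 without antibody library 2 (limma adjusted p = 0.153, the lowest of the fits that left out 1 library, against 0.735 as the highest). Bhlhe41, an E-box repressor, had a log2 difference of 0.24 (SE 0.11 and limma adjusted p = 0.601), and Hlf one of -0.26 (limma adjusted p = 0.669).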

How the data were processed

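The submitters' processing notes name STAR, RSEM, DESeq2 and the mm10 build, without versions or roles. Annotation and counting settings: not given in the sources used here. Per the file headers, the deposited tables hold for each library a normalized count signal, and the authors' own log2 fold change with its SE, test score, p-value and adjusted p-value, signed control over treated and turned round here. Every value was a whole multiple of 1 step per library (100% of values, relative tolerance 1e-06), so reads could be recovered. The members and gene lists were chosen with earlier results of these data known.

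limma-trend (limma 3.58.1, R 4.3.3) was run on log2(normalized count + 1) for genes with a mean of at least 10, each experiment alone, with Benjamini-Hochberg adjustment over all genes tested and calls at an adjusted p under 0.05. On that scale the change of a low gene comes out too small. As alternatives, edgeR 4.0.16, DESeq2 1.42.0 and limma-voom on the recovered reads were run, and limma with a pseudocount of 0.5, other filters, TMM scaling, a choroid plexus covariate, a length trend and single libraries left out. The scripts were tested on simulated data. Correlations were taken after subtracting group means, with all arrangements within groups enumerated (86400 in the transfer, 14400 in the depletion) in place of random resampling. Lengths come from GENCODE M21, which held 23376 of 24411 symbols (95.8%), and promoter sequences from RefSeq GRCm38.p6.

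Named genes were all members, Npas2, the 3 partners with the smallest p in each experiment, up to 3 immediate early and 3 glucocorticoid-responsive genes each, and the 5 genes most like Dbp and Arntl, leaving out symbols that start with Gm and digits or end in Rik. Each library carries its own sample number in the labels, replicates are numbered in record order, and no batch is given. The p-values measure the spread between these libraries.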

Additional observations from a re-analysis of the deposited data

Results flagged for a closer look

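Single libraries far from the rest of their group were looked for among 24 genes in 96 groups, and 7 were found; by chance about 1 group in 20 would be. For Clock, CD8a antibody library 5 was lowest at 441 normalized counts, with the nearest library at 973. Npas2 was highest in CD8a antibody library 2 at 363 (nearest 204) and, among controls, in IgG2b library 1 at 429.9 (nearest 304). IgG2b library 1 also had the highest Hlf, at 2876 (nearest 2239), and the highest Bhlhe41, at 729 (nearest 642). Dusp1, an activity-induced phosphatase, was highest in IgG2b library 5 at 561 (nearest 331). Fosb, an activity-induced transcription factor, was lowest in young T library 3 at 79.1 (nearest 149).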

How the results depend on the processing

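No paired analysis was possible because the sample numbers in the labels are not shared between groups. No member was called by limma under any alternative run, nor by edgeR, DESeq2 or limma-voom. The sign held in all 20 alternatives for 7 of 10 members in the transfer, and in all 19 for 5 of 10 in the depletion. In the transfer, the Nr1d2 log2 difference (-0.01) was 0.0021 with edgeR, 0.0070 with DESeq2, 0.0249 with the choroid plexus covariate and 0.0232 with the length trend subtracted. Npas2 (0.03) was -0.0124 with edgeR and -0.0073 with DESeq2, and Ddit4 (0.13) was -0.00667 with the length trend subtracted. Over all genes of the depletion, 1 call became 0 without the mean filter, 3 with the choroid plexus covariate and 92 with DESeq2. With single libraries left out the count was 0 to 25. The 25 calls came without antibody library 5, and leaving out any other library gave 0 to 2. The cause was not tested. Leaving out single libraries gave transfer ranges of -0.12 to -0.03 for Nr1d1, -0.10 to 0.13 for Arntl, -0.12 to 0.0172 for Cry1, -0.092 to 0.0795 for Nr1d2 and -0.0839 to 0.13 for Npas2. Depletion ranges were 0.04 to 0.24 for Per3, 0.03 to 0.16 for Nr1d1, -0.0403 to 0.12 for Cry1, -0.0128 to 0.0659 for Cry2, -0.20 to 0.0215 for Nr1d2, -0.0268 to 0.0712 for Per1 and -0.20 to 0.0010 for Per2. The Arntl with Dbp correlation ranged from -0.31 to 0.29 in the depletion (0.29 without antibody library 2) and from -0.68 to -0.26 in the transfer, and Per2 with Per3 from -0.31 to 0.20 in the depletion. The median log2 difference of the members ranged from -0.12 to -0.04 in the transfer and from 0.01 to 0.07 in the depletion. With 5 or 6 libraries a group, 95% intervals of single members reached from 0.15 to 0.48 on either side of the estimate.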

Other observations

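Glucocorticoid-responsive and immediate early genes, which share inputs with Per1, were read from lists of 10 each, and limma, edgeR, DESeq2 and limma-voom called 0 of them in either experiment. At an unadjusted p under 0.05 there were 0 immediate early genes with any of these tools, and 1 glucocorticoid-responsive gene in each experiment with limma (up to 3 with edgeR in the depletion), against 8.25% and 8.47% of all genes with limma. Zbtb16, a zinc finger repressor induced by glucocorticoids, lay lower in aged T recipients, at 752 ± 231 against 1070.1 ± 138 normalized counts (SD, n = 5 and 6), a log2 difference of -0.55 (limma adjusted p = 0.600). It also lay lower with the CD8a antibody, at 521 ± 133 against 715 ± 154 (SD, n = 5 each), a log2 difference of -0.47. Sgk1, a glucocorticoid-induced kinase, had a log2 difference of -0.50 (-0.72 to -0.30 with single libraries left out) and Ddit4 one of -0.27 (-0.38 to -0.20) with the antibody, where 8 of 10 such genes lay lower (median -0.24). In the transfer 5 of 10 lay lower, with Mt1 at 0.19 (0.08 to 0.29) and Ddit4 at 0.13 (0.06 to 0.20).

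Of the immediate early genes, 7 of 10 lay lower in aged T recipients (median log2 difference -0.15), among them Fosb at -0.42 (-0.59 to -0.23 with single libraries left out), Fos at -0.43 (-0.69 to -0.21) and Dusp1 at -0.26 (-0.43 to -0.11). With the CD8a antibody 5 of 10 lay lower (median -0.02), with Egr1 at 0.22 (0.12 to 0.36), Arc at 0.12 (0.05 to 0.18) and Dusp1 at -0.25 (-0.38 to -0.06).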
